A study of Mus musculus with 92 samples.

Results

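The quadriceps muscles of mice with much fat cell transcript were compared with those of mice with little. Each animal was given a score, the mean of the standardised log2 values of Adipoq, Plin1 and Cidec, and the 23 highest-scoring of 92 animals were set against the 23 lowest-scoring, with 46 animals between them. The sets were therefore chosen on measured values, and the 3 score genes are given as a description with no test. All 92 animals were DOz mice of 1 group, about 18 to 20 weeks old, fed standard chow for life and given no other treatment in the labels, which name no sex. DOz mice are outbred and differ genetically from animal to animal. The series asks how ceramides of very long chains in muscle relate to insulin resistance of the whole body. Each animal gave 1 library of polyadenylated RNA, and its values are log2 expression on a scale close to per-million values.

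Skeletal muscle holds fat cells between its fibres and fibre bundles, and this fat shares genes with the fat depots elsewhere in the body. White fat cells store triglyceride in a single large droplet, make fatty acids and glycerol 3-phosphate for it, release fatty acids when adrenergic signals raise cyclic AMP, and secrete hormones such as adiponectin and leptin. Pparg and Cebpa are the transcription factors that drive and keep this programme.

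Adipoq, which encodes adiponectin, lay at 4.30, 4.88 and 6.61 (lowest, median and highest log2 value of 23 animals) in the high set and at 0.63, 2.86 and 3.45 in the low set. Plin1, the perilipin that coats the droplet of fat cells, lay at 4.34, 5.12 and 6.97 in the high set, and its low set had a median of 2.57 and a highest value of 3.04. Cidec, a protein of droplet contacts through which droplets grow, lay at 3.85, 4.55 and 6.39 against -0.17, 2.29 and 2.81. None of the 3 overlapped between the sets, which the score itself brings about. The scores ran from 0.725 to 2.71 in the high set and from -3.25 to -0.742 in the low set. The boundaries were not gaps: the animal just inside the high set scored 0.7253 and the animal just outside it 0.7222, and at the low end the scores were -0.7416 inside and -0.7102 outside. Of the 23 high animals, 13 were among the 23 highest for each of the 3 genes taken alone, and 16 of the 23 low animals were among the lowest for each.

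**Figure D1:**
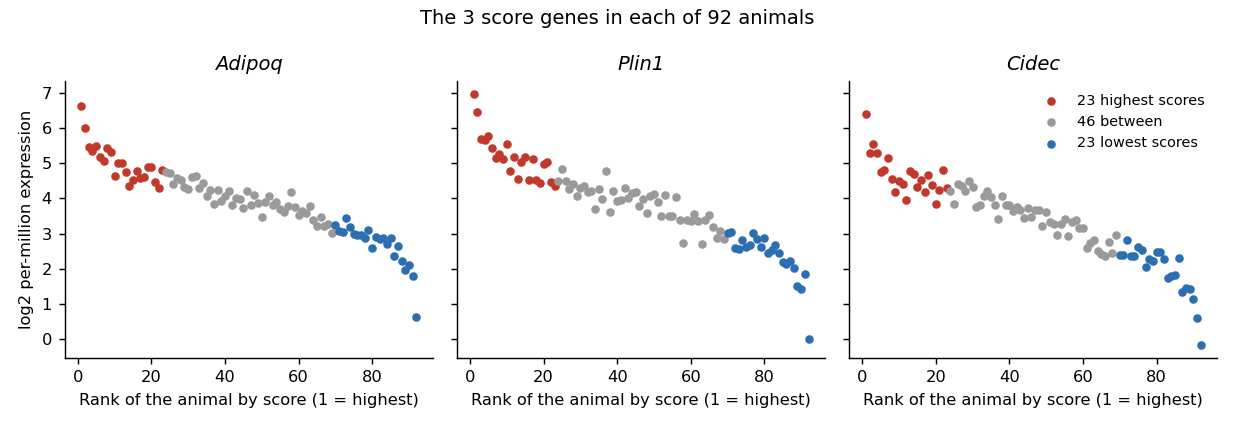
Log2 per-million expression of Adipoq, Plin1 and Cidec (y axis) in each of 92 animals ordered by score (x axis, 1 is the highest), with 1 point per animal and the sets in colour. The values form a continuous slope, with Adipoq from 6.61 down to 0.63, and no step at the edges of the sets.

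The bases before the start sites of the score genes are shown with those of Lep (leptin) and Cfd (adipsin), which both differed between the sets but moved against each other among animals of like score. They are the 250 bases before each start, 5′ to 3′ on the gene's own strand, from RefSeq on GRCm38.p6. Capitals mark TTGCNNAA, a form of the element bound by C/EBP factors such as that of Cebpa, searched on both strands.
Adipoq, chr16:23146286-23146535, plus strand: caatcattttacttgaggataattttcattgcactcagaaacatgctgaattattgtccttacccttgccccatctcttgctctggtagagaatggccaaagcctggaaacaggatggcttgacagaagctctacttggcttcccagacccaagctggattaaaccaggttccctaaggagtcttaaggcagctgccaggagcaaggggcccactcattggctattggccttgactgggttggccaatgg
Plin1, chr7:79732777-79733026, minus strand: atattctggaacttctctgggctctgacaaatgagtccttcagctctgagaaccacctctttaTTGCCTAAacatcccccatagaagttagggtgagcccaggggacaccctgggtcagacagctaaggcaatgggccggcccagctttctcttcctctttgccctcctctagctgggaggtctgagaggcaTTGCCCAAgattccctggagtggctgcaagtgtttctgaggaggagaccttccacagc
Cidec first start, chr6:113435761-113436010, minus strand: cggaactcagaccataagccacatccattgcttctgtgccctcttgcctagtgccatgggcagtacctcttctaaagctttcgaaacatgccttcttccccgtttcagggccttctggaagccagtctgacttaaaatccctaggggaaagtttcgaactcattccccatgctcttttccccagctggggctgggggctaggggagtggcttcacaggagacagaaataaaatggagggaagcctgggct
Cidec second start, chr6:113434765-113435014, minus strand: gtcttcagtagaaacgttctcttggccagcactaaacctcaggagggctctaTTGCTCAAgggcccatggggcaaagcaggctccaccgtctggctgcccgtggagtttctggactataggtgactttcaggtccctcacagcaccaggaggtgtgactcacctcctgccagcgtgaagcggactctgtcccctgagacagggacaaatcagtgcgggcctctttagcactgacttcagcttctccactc
Lep, chr6:29059971-29060220, plus strand: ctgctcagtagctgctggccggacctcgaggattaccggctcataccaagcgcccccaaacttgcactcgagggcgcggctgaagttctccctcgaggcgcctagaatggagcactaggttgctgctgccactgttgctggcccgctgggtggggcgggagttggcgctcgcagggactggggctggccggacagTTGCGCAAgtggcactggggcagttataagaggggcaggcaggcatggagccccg
Cfd, chr10:79890603-79890852, plus strand: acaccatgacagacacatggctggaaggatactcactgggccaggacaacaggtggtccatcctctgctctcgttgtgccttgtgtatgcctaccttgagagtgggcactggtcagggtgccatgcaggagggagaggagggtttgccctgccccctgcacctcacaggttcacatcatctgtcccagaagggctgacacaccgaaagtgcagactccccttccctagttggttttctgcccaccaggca
Counted from the start site, with -1 as the base before it, the letters began at -187 and -58 in Plin1, at -55 in Lep and at -198 at the second start of Cidec, while the windows of Adipoq, Cfd and the first start of Cidec held none. The letters were found in 9.56% of 32851 RefSeq windows of this length, in 9.02% of the tested genes and in 18 of 184 genes higher in the high set that had a window (9.78%). TATAAA, searched in the same way, was in 12.4% of all windows, in 8.42% of the tested genes and in 26 of those 184 genes (14.1%). AGGTCA was in 13.2% of the tested genes and in 13.6% of the 184, CACGTG in 9.93% and 10.3%, and the DR1 element of nuclear receptors in 0.801% and 1.09%. None of the 6 windows shown held TATAAA.

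Outside the 3 score genes, 13438 genes were tested between the sets with limma, and a gene was called at an adjusted p under 0.05 (Benjamini-Hochberg over all of them). In the high set 259 genes were higher (1.93%) and 21 were lower (0.156%), while the median difference of all genes was -0.0035 on the log2 scale. The higher genes had a median difference of 0.78 and the lower ones of -0.32. A difference of at least 2-fold was passed by 98 higher genes (0.729%) and by 1 lower gene, Asb11 (0.00744%). Without the 3 highest-scoring animals 188 genes were higher and 8 lower. With each sample centred on its median the split was 229 higher and 51 lower.

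No value of the high set overlapped with the low set in 11 genes (0.0819%), all higher. They were Prkar2b, Lipe, Aoc3, Slc36a2, Lgals12, Pck1, Car5b, Cdo1, Trarg1, Klhdc7a and Ifi27l2a. Of the 259 higher genes, 45 were in the fat cell lists used here, 8 more were in other lists, and the remainder were in none. Because the animals were chosen on fat cell genes, the counts of fat cell genes describe the sets and are not separate evidence of them. In bulk RNA, more fat cells and more RNA of a gene per fat cell cannot be told apart, and the values do not say where in the muscle the cells lay.

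Among secreted products of fat cells, 10 of 15 tested genes were higher and none was lower, with a list median of 1.27 against -0.0035 for all genes. Of all genes tested 1.93% were higher, the share beside which each list count is to be read. Lep lay at 0.27, 3.62 and 5.89 in the high set and at -3.86, 0.52 and 2.75 in the low set. Its difference was 2.99 ± 0.41 (log2, SE, n = 23 and 23; limma adjusted p = 4.76e-07), the largest of any gene tested, yet the sets overlapped, with 18 of 23 high animals above every low animal. Hp, which encodes the haemoglobin-binding haptoglobin, lay at 3.12, 4.59 and 6.26 against 0.28, 2.33 and 4.01, a difference of 2.33 ± 0.22 (limma adjusted p = 3.65e-11). Retn, which encodes the hormone resistin, lay at 0.92, 2.34 and 4.75 against -0.54, 0.48 and 1.70, a difference of 1.98 ± 0.21 (limma adjusted p = 5.46e-10). For both genes 21 of 23 high animals lay above every low animal, while 19 of 23 low animals for Hp and 16 of 23 for Retn lay below every high animal.

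Rbp4, the carrier of retinol in blood, was higher by 1.80 ± 0.22, and Orm1, an acute-phase glycoprotein, by 2.18 ± 0.30. Cfd lay at 2.93, 5.0 and 7.61 in the high set and at 1.55, 3.27 and 4.39 in the low set, a difference of 1.75 ± 0.29 (limma adjusted p = 3.15e-05). Its sets overlapped widely, and 14 of 23 high animals exceeded the low set. Nrg4, a growth factor of the neuregulin family, was higher by 1.65 ± 0.20 and Serpina3c, a serine protease inhibitor, by 1.27 ± 0.17. Angptl4, an inhibitor of lipoprotein lipase, was higher by 1.09 ± 0.25, and Adig by 0.79 ± 0.22 at a limma adjusted p of 0.0487. Lpl, the lipase that frees fatty acids from lipoproteins and that muscle fibres also make, differed by 0.26 ± 0.10 and did not pass (limma adjusted p = 0.18). Without the lowest-scoring animal the list held 9 called genes.

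In the list of lipid droplet and lipolysis genes 11 of 21 were higher and none lower, with a median of 0.38. Lipe, the hormone-sensitive lipase, lay at 4.94, 5.38 and 7.02 in the high set and at 3.17, 4.21 and 4.73 in the low set. The sets did not overlap, and the difference was 1.30 ± 0.11 (limma adjusted p = 4.07e-12). Adrb3, the beta-3 adrenergic receptor of fat cells, lay at 0.38, 2.33 and 4.75 against -2.16, -0.03 and 1.60, a difference of 2.40 ± 0.28 (limma adjusted p = 7.71e-09). Hcar1, the lactate receptor, was higher by 2.05 ± 0.23, Pde3b, which breaks down cyclic AMP on insulin's signal, by 1.59 ± 0.17, G0s2, an inhibitor of adipose triglyceride lipase, by 1.04 ± 0.22, and Adora1, an adenosine receptor, by 1.02 ± 0.21. Hilpda, another inhibitor of that lipase, differed by 0.09 ± 0.10 and did not pass (limma adjusted p = 0.768).

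Npr3, the clearance receptor for natriuretic peptides, was higher by 1.56 ± 0.19, Aqp7, a glycerol channel, by 0.57 ± 0.11, and Mgll, which cleaves the last acyl chain from glycerol, by 0.52 ± 0.07. Bscl2, the seipin of droplet formation, was higher by 0.38 ± 0.09. Cidea, given with the brown and beige fat genes, was the remaining member that passed. Among those that did not, Pnpla2, the adipose triglyceride lipase itself, differed by 0.29 ± 0.09 (limma adjusted p = 0.0657), Plin4 by 0.34 ± 0.12 and Plin2 by 0.21 ± 0.10.

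Of 32 genes of fatty acid and triglyceride synthesis 15 were higher and none lower, with a median of 0.32. Pck1, which makes the precursor of glycerol 3-phosphate in fat cells, lay at 4.15, 5.88 and 7.94 in the high set and at 1.0, 3.09 and 4.07 in the low set. The sets were wholly apart, by a difference of 2.92 ± 0.25 (limma adjusted p = 1.54e-12). Fasn, the fatty acid synthase, lay at 4.43, 7.03 and 10.65 against 3.81, 5.24 and 6.52, a difference of 2.17 ± 0.33 (limma adjusted p = 7.14e-06). Here 15 of 23 high animals lay above every low animal and 4 of 23 low animals lay below every high animal. Elovl6, which lengthens the product of Fasn, spread further still, from 0.07 to 6.97 in the high set, and was higher by 1.81 ± 0.33.

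The other named steps ran the same way. Slc25a1, the citrate carrier of the mitochondrion, was higher by 1.85 ± 0.22, Acly, which splits citrate to acetyl-CoA, by 1.44 ± 0.27, and Acaca, the acetyl-CoA carboxylase of the cytosol, by 1.28 ± 0.24. Scd1, the delta-9 desaturase, was higher by 2.03 ± 0.25 with a highest value of 11.72. Thrsp, a lipogenic protein known as Spot 14, was higher by 1.65 ± 0.29. Agpat2 and Dgat2, acyltransferases of triglyceride assembly, were higher by 1.73 ± 0.19 and 1.53 ± 0.19, and Dgat1 by 0.39 ± 0.09.

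Of 17 adipogenic factors 2 were higher, against 1.93% of all genes, and none was lower. The list median was 0.12. Cebpa lay at 3.18, 3.79 and 5.63 against 1.34, 2.01 and 3.40, a difference of 1.88 ± 0.15 (limma adjusted p = 1.5e-13). Pparg lay at 1.39, 2.38 and 4.40 against 0.18, 1.32 and 2.29, a difference of 1.15 ± 0.18 (limma adjusted p = 9.91e-06). The sets nearly separated for Cebpa and overlapped more for Pparg, where 14 of 23 high animals lay above every low animal.

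Of 16 genes of fatty acid uptake and caveolae 5 were higher and none lower, with a median of 0.28. Fabp4, the fatty acid binding protein of fat cells and capillaries, lay at 7.46, 8.10 and 9.54 against 6.67, 6.95 and 7.71, a difference of 1.15 ± 0.10 (limma adjusted p = 1.04e-11). Acvr1c, the activin receptor ALK7, was higher by 1.87 ± 0.27 and Slc7a10, a neutral amino acid transporter of white fat, by 1.83 ± 0.22. Ehd2, a protein of the caveolar neck, was higher by 0.36 ± 0.07, and Cavin1, a caveolar coat protein, by 0.19 ± 0.05 (limma adjusted p = 0.0381). Cavin1 did not pass in 7 of 16 alternatives, among them without the lowest-scoring animal (limma adjusted p = 0.0568) and with the run of title numbers described below as a covariate (0.0644). Cd36, the fatty acid translocase shared with muscle fibres, differed by 0.35 ± 0.10 (limma adjusted p = 0.0589), and Slc2a4, the insulin-responsive glucose transporter, by -0.05 ± 0.05 (limma adjusted p = 0.765).

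**Figure D2:**
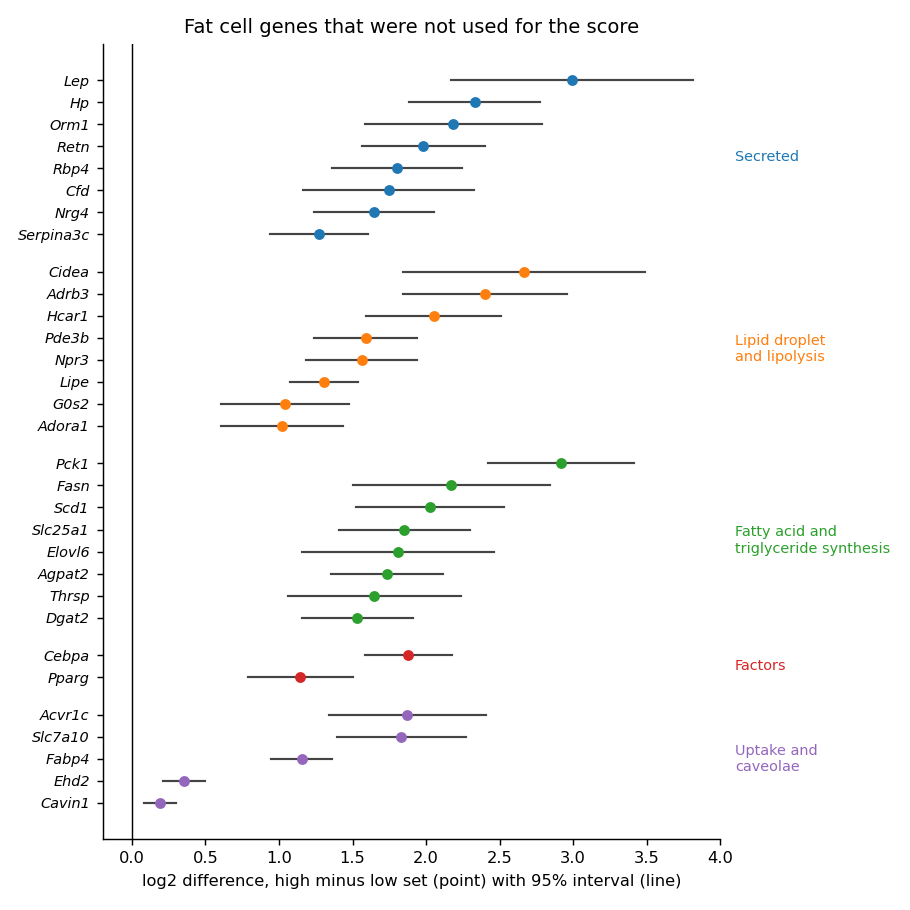
Log2 difference, high minus low set (points, x axis), with its 95% interval (lines) for 31 called genes of the fat cell lists, grouped by role. Only called genes are shown, so every interval lies above 0 by that choice. The points run from 0.19 for Cavin1 to 2.99 for Lep, in sets of 23 animals that were chosen for 3 other fat cell genes.

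Of the 12 brown and beige fat genes tested 3 were higher, against 1.93% of all genes, none was lower, and the median was 0.22. Cidea, a droplet protein of the Cidec family, lay at -0.81, 2.57 and 6.02 in the high set and at -1.92, -0.43 and 1.35 in the low set. The high set thus ran from values inside the low set to far above it, and the difference was 2.67 ± 0.41 (limma adjusted p = 7.38e-06). Slc36a2, an amino acid transporter, lay at 1.52, 2.95 and 5.16 against -0.64, 0.75 and 1.43 with no overlap, and Kcnk3, a potassium channel, was higher by 1.99 ± 0.23. Ucp1, the uncoupling protein that defines brown fat, and Elovl3, Otop1, Zic1 and Slc27a2 were not analysed here.

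Among the other genes with the largest differences, Prkar2b, a regulatory subunit of protein kinase A, lay at 2.82, 3.88 and 6.57 in the high set and at -0.34, 1.27 and 1.97 in the low set. That difference was 2.83 ± 0.20 (limma adjusted p = 6.56e-15). Trarg1, which takes part in the trafficking of the insulin-responsive glucose transporter, had the smallest p-value of all genes. It lay at 2.69, 3.50 and 4.99 against 0.26, 1.12 and 2.14, with a difference of 2.37 ± 0.14 (limma adjusted p = 2.09e-17), and the sets were wholly apart. Lgals12, a galectin of fat cell droplets, was higher by 2.33 ± 0.18, Cdo1, which oxidises cysteine, by 2.49 ± 0.23, and Nnat, the imprinted neuronatin, by 2.40 ± 0.26. Tmem45b and Klhdc7a were higher by 2.89 ± 0.27 and 2.76 ± 0.24.

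The 46 animals between the sets were used for neither, and in them each gene was fitted as a slope on the score. With limma 24 genes had a rising slope past the threshold (0.179%) and 1, E430018J23Rik, a falling one (0.00744%), while 706 had an unadjusted p under 0.05. All 24 were among the 259 genes higher in the high set. Of the 259 genes 237 had a positive slope (91.5%), against 47.1% of all genes tested. Of the 21 lower genes 13 had a negative slope.

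Cebpa rose by 0.74 ± 0.11 per unit of score in these animals (log2, SE, n = 46; limma adjusted p = 7.11e-05), and Prkar2b by 1.19 ± 0.18, Tmem45b by 1.04 ± 0.15 and Cdo1 by 1.10 ± 0.16 at the same adjusted p. Hp, Retn, Rbp4, Orm1, Npr3, Dgat2, Fabp4, Slc36a2, Klhdc7a and Trarg1 passed as well. Lep had a larger slope, 2.02 ± 0.51, that did not pass (limma adjusted p = 0.115). Cfd had a slope of 0.27 ± 0.34 and Nrg4 of 0.10 ± 0.16, each at a limma adjusted p of 0.999. For these 2 genes the difference between the sets had no counterpart past the threshold in the middle animals. The same held for most genes higher in the high set, of which only 24 passed here. Lipe, Pck1, Fasn, Adrb3 and Pparg did not pass (limma adjusted p = 0.173, 0.261, 0.433, 0.985 and 0.985). While 237 of the higher genes had a positive slope, S100b, Pik3r1 and Aqp7 had negative ones (-0.25 ± 0.31, -0.08 ± 0.13 and -0.02 ± 0.12). Whether the slope of any gene differed from that across the sets was not tested.

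After a straight line on the score had been taken off each gene, fat cell genes still varied among the 92 animals, with an SD of 1.39 for Lep, 0.94 for Cfd, 1.04 for Fasn and 0.63 for Pck1. The 6 pairs of genes given here were picked from many after the values had been seen, so their p-values, adjusted over these 6 alone, take no account of that choice and the relations are a description. In these departures from the line Cfd and Lep ran against each other. Pearson's r was -0.781 and Spearman's rho was -0.808 (n = 92; permutation p = 1e-05 for both, the smallest that 100000 resamples give; adjusted over 6 relations 1.2e-05). Without the 2 animals farthest from the median of Cfd r was -0.766. It lay between -0.893 and -0.712 within the 5 runs of title numbers described below, and was -0.801 in the high set, -0.801 in the middle animals and -0.674 in the low set. The values before the line was taken off had an r of -0.0626.

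Pck1 also ran against Lep (r = -0.706, rho = -0.723, permutation p = 1e-05 and adjusted p = 1.2e-05 for both; without the 2 farthest animals r = -0.695), with r between -0.901 and -0.36 within the runs, although before the line was taken off the 2 genes had a positive r of 0.336. The departures of Fasn went with those of 3 other genes of fatty acid synthesis. Fasn went with Elovl6 at r = 0.872 and rho = 0.866, with Acly at r = 0.839 and rho = 0.839, and with Scd1 at r = 0.768 and rho = 0.771 (permutation p = 1e-05 and adjusted p = 1.2e-05 for each). Without the 2 farthest animals these r were 0.877, 0.825 and 0.793, and within the runs the lowest was 0.721. In the low set alone Fasn and Acly had an r of 0.342, against 0.94 in the high set. Fasn against Lep gave r = -0.418 and rho = -0.444 (permutation p = 5e-05 and 2e-05, the same after adjustment; without the 2 farthest animals r = -0.405), but r ran from -0.691 to 0.196 within the runs, so this relation did not hold in each of them. Before the line was taken off, the r of Fasn and Lep was 0.217.

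**Figure D3:**
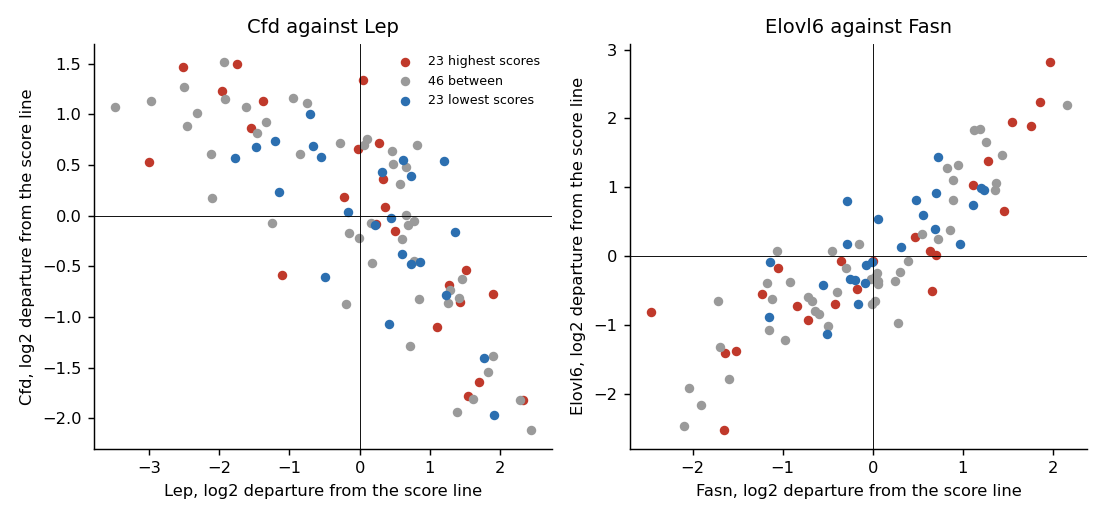
Departure of each gene from its straight line on the score (log2) for Cfd against Lep (left) and Elovl6 against Fasn (right), with 1 point per animal and the sets in colour. The left cloud falls (r = -0.781) and the right cloud rises (r = 0.872) over the same 92 animals.

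Markers of other cells that lie in muscle or around fat were mostly positive in their differences, and few passed. With 1.93% of all genes called higher, lists of this size would hold few or none at that share, so a count of 0 says little. Of 20 progenitor and fibroblast genes 2 were higher, Dpt (dermatopontin of the matrix) by 0.50 ± 0.10 and Gsn (the actin-severing gelsolin) by 0.39 ± 0.08. Yet 18 of the 20 had a positive difference, with a median of 0.15. Of 14 macrophage genes none was called, 13 had a positive difference and the median was 0.28. Positive differences were found for 9 of 12 endothelial genes (median 0.06), 9 of 10 smooth muscle and pericyte genes (0.18), 4 of 5 mast cell genes (0.26), 5 of 5 red blood cell genes (0.31), both lymphocyte genes (0.16) and 1 of 6 satellite cell genes (-0.08), and none of these genes was called. Of 10 Schwann cell genes 9 were positive, with a median of 0.24, and 1 was higher, S100b, a calcium-binding protein that fat cells also make, by 1.27 ± 0.24.

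The summed per-million level of the macrophage list was 102.5, 164 and 291.4 (lowest, median and highest) in the high set and 70.5, 120 and 1024 in the low set. That of the fibroblast list was 1378, 1778 and 2680 against 1139, 1641 and 3292. Both ranges overlapped almost wholly, and the highest animal of each list was not in the high set. With the scores of the fibroblast, macrophage, endothelial and Schwann lists as covariates 133 genes were higher, 132 of them among the 259, and 7 were lower. In that fit 8 of 15 secreted, 10 of 21 droplet and 11 of 32 synthesis genes were higher. Gsn and S100b, which are themselves part of a list score in that fit, did not pass in it (limma adjusted p = 0.203 and 0.0756).

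No gene of the muscle fibre lists was called, and their small differences were mostly below 0. With 2.08% of all genes called, lists of this size would hold few or none, so this count says little. The 18 fast fibre and glycolytic genes, which mark this muscle, summed to between 139300 and 261900 on the per-million scale over both sets, and 2 of them had a positive difference. Their median difference was -0.06, which turned to 0.0013 with quantile normalisation. Of 25 respiratory chain genes 3 had a positive difference (median -0.06), of 10 slow fibre genes 3 (median -0.17), and of 19 fatty acid oxidation genes 16 (median 0.05), and none of these was called. Over all genes 6547 of 13438 differences were positive.

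**Figure D4:**
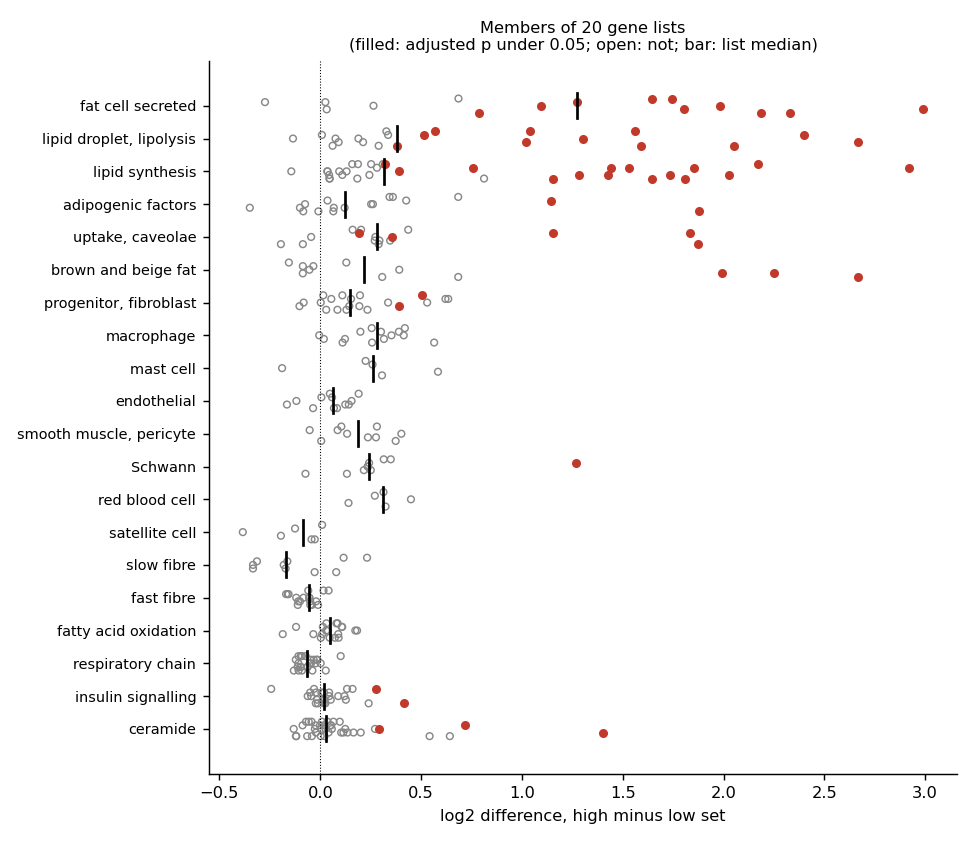
Log2 difference, high minus low set (x axis), for each tested member of 20 gene lists, with filled points for adjusted p under 0.05, open points for the rest and a bar at each list's median. Filled points lie mostly in the fat cell lists at the top, up to 2.99, and none lies in the fibre and respiratory chain lists. Lists of that size would hold few or none at the 2.08% called over all genes.

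Of 26 insulin signalling genes 2 were higher, against 1.93% of all genes, and the median was 0.02. Pik3r1, the p85-alpha regulatory subunit of phosphoinositide 3-kinase, lay at 4.47, 5.04 and 5.72 against 4.21, 4.62 and 5.62, a difference of 0.42 ± 0.10 (limma adjusted p = 0.0125). It did not pass with a score from Adipoq and Plin1 (limma adjusted p = 0.209) or with sets of 15 (0.175) or 31 animals (0.117). Pik3cb, a catalytic subunit, differed by 0.28 ± 0.07 (limma adjusted p = 0.0297). It did not pass without the highest-scoring animal (limma adjusted p = 0.0567) or without the lowest-scoring animal (limma adjusted p = 0.0524), nor with the run as a covariate (limma adjusted p = 0.0635). The difference of Pik3cb in these fits was 0.255, 0.254 and 0.256.

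Of 38 genes of ceramide metabolism and fatty acid elongation 3 were higher, against 1.93% of all genes, and the median was 0.03. Hacd2, a dehydratase of very long-chain fatty acid elongation, lay at 1.60, 2.69 and 4.26 in the high set and at -0.40, 1.42 and 2.28 in the low set, a difference of 1.40 ± 0.18 (limma adjusted p = 1.17e-07). Hsd17b12, the ketoacyl reductase of the same cycle, was higher by 0.72 ± 0.13, and Ormdl3, a regulator of serine palmitoyltransferase, by 0.29 ± 0.06. With the 4 list scores as covariates Hsd17b12 and Ormdl3 differed by 0.53 ± 0.14 and 0.24 ± 0.07 and did not pass (limma adjusted p = 0.0539 and 0.0812). The ceramide synthases did not pass in the fit without covariates. Cers2, which makes very long-chain ceramides, lay at 4.05, 4.46 and 4.72 against 4.03, 4.27 and 4.67, a difference of 0.10 ± 0.06 (limma adjusted p = 0.474). Cers1, the main ceramide synthase of muscle fibres, differed by -0.04 ± 0.09 (limma adjusted p = 0.908), and this sign turned with sets of 15 animals. The 95% interval of the difference ran from -0.01 to 0.22 for Cers2 and from -0.22 to 0.14 for Cers1.

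None of the 21 genes lower in the high set was in a list, and all but 1 differed by less than 2-fold. Asb11, an adaptor of a ubiquitin ligase, lay at 3.90, 4.70 and 6.81 in the high set and at 4.38, 6.62 and 7.42 in the low set, a difference of -1.20 ± 0.27 (limma adjusted p = 0.00362). The sets covered much the same range and differed in how many animals lay at its upper end. Sirt7, a nuclear deacylase, differed by -0.39 ± 0.10, Tm7sf2, a sterol reductase, by -0.41 ± 0.11, and Ten1, a telomere protein, by -0.37 ± 0.10. Of 16 alternatives Sirt7 did not pass in 2, Tm7sf2 in 4 and Ten1 in 6. Cacng1, a subunit of the muscle calcium channel, and Trdn, the triadin of the calcium release complex, differed by -0.25 ± 0.07 and -0.23 ± 0.06, with limma adjusted p of 0.0497 and 0.0491. Neither passed without the highest-scoring or without the lowest-scoring animal. In all, 14 genes were called lower without the highest-scoring animal and 16 without the lowest-scoring one.

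Asb11 and Ofd1, a centriole protein, each fell into 2 separate levels. Ofd1 had no value between 3.41 and 4.68, with 58 animals below and 34 above, and Asb11 none between 5.35 and 6.08, with 33 below and 59 above. In 91 of 92 animals the 2 genes were at opposite levels. The upper level of Ofd1 was found in 17 of 23 high animals, 5 of 23 low animals and 12 of 46 middle animals. Ofd1 was thereby higher in the high set by 0.97 ± 0.25 (limma adjusted p = 0.0181). Both levels occurred in each of the 5 runs of title numbers.

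The 2 genes lie on the X chromosome, Asb11 at chrX:164436953-164459170 and Ofd1 at chrX:166386573-166440704 (RefSeq, GRCm38.p6). Of 14 tested genes in the 2.53 Mb from Ap1s2 to Ofd1, 5 were called (35.7%, against 2.08% of all genes). These were Ap1s2, a subunit of a vesicle adaptor, with -0.61 ± 0.13, Fancb, of the Fanconi DNA repair complex, with -0.66 ± 0.18, Car5b, a mitochondrial carbonic anhydrase, with 1.46 ± 0.15, and Asb11 and Ofd1 themselves. In the middle animals Car5b rose with the score by 0.59 ± 0.12 (limma adjusted p = 0.0065), while Asb11 had a slope of -0.07 ± 0.34, Ofd1 of 0.11 ± 0.32, Ap1s2 of 0.15 ± 0.17 and Fancb of 0.01 ± 0.25. The slopes of Ap1s2 and Fancb had the opposite sign to their differences. Asb11 and Ofd1 did not pass with sets of 15 animals (limma adjusted p = 0.0838 and 0.151) or of 31 (0.0599 and 0.111), and neither did Ap1s2 (0.0586 with 15 and 0.0608 with 31). The differences of Asb11, Ofd1 and Ap1s2 were -1.185, 0.94 and -0.63 with sets of 15, and -0.82, 0.67 and -0.40 with sets of 31. Ofd1 also did not pass with a score from Adipoq and Cidec (limma adjusted p = 0.108). This stretch and its ends were chosen after the values had been seen.

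**Figure D5:**
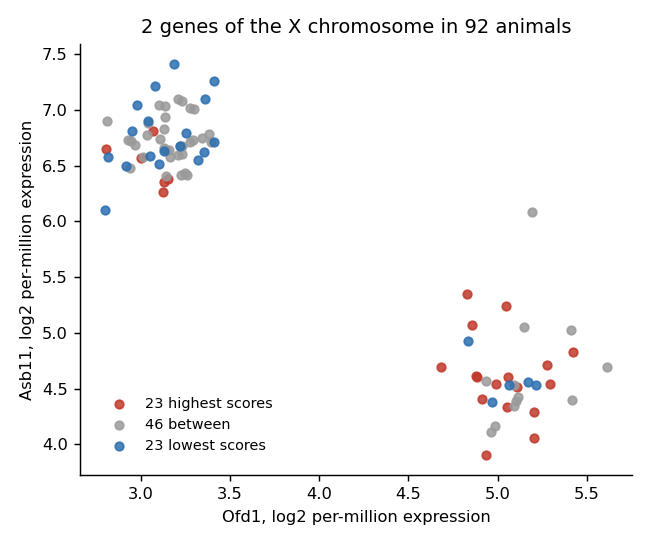
Log2 per-million expression of Asb11 (y axis) against Ofd1 (x axis), with 1 point per animal and the sets in colour. The animals form 2 clusters, and 17 of 23 high animals against 5 of 23 low animals have Ofd1 at its upper level.

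Sample medians were 3.47 to 3.54 in the high set and 3.43 to 3.55 in the low set. The summed per-million values had a median of 978700 in the high set and 1033000 in the low set, and their ranges overlapped. The number in the sample title falls into 5 runs separated by gaps of over 30, with 33, 14, 21, 11 and 13 animals, whose meaning the labels do not give. The high and low sets held 6 and 9, 4 and 4, 7 and 3, 2 and 2, and 4 and 5 animals of these runs. With the run as a covariate 245 genes were higher, 233 of them among the 259, and 13 were lower. Within each run alone Lep was higher in the high animals by 1.25 to 3.95, Cebpa by 1.09 to 3.12, Fasn by 1.08 to 3.31 and Lipe by 1.04 to 2.13.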

How the data were processed

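Polyadenylated RNA of 92 quadriceps muscles was sequenced, with KAPA mRNA HyperPrep libraries, per the labels' protocols. The authors deposited 1 table of log2 values. Its scale was read from the values: 2 raised to them sums to between 898071 and 1140761 per sample. The submitters' processing notes name bcl2fastq, MultiQC, kallisto 0.50.1, edgeR and mm10, with no roles. Depth is unknown, so precision comes from the spread between animals. After 15 repeated lines were removed, 13441 genes remained. The score sets and lists were chosen with earlier results of these data known. Differences and slopes were fitted with limma 3.58.1 in R 4.3.3 (empirical Bayes with a mean-variance trend), without covariates, on the deposited log2 values. The tests used 13438 genes, the 3 score genes left out. On data simulated for this comparison (all 13438 genes) the fit called 48 of 50 genes raised by 1 on the log2 scale and 36 of 50 raised by 0.5. Named genes were the called members of each list with the largest differences (up to 8 for fat cell lists, 4 for others), the 15 largest in each direction among genes with a mean of at least 1, Cers1, Cers2 and Elovl6. Others in the text were named after their values were seen. The lists with no result in the text were keratinocyte genes (0 of 1 called) and mesothelial genes (0 analysed here). Adjusted p-values come from fits whose standard errors rest on the spread between these animals. RefSeq windows before start sites were searched for fixed letters. Alternatives varied the score genes, set size, scaling, filter, pseudocount, moderation, covariates and extreme animals.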

Additional observations from a re-analysis of the deposited data

How the results depend on the processing

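The number of genes higher in the high set stayed within 1.5 times of 259 in 14 of 16 alternatives. It was 468 with the score as a slope over all 92 animals and 133 with 4 cell list scores as covariates. The number of lower genes was less steady than that. It went from 21 to 13 with the run of title numbers as a covariate, 10 with a score from Adipoq and Plin1, 36 with Plin1 and Cidec, 12 with sets of 15, 33 with sets of 31, 108 with the slope, 8 without the 3 highest-scoring animals, 51 with samples centred on their medians, 33 with quantile normalisation and 7 with the 4 scores. At least 2-fold higher genes fell from 98 to 59 with a pseudocount of 1 and to 62 with only genes of a mean of at least 1. The count of 2-fold lower genes was 2 with Adipoq and Plin1, and 0 with Adipoq and Cidec, with sets of 15, with sets of 31 and with the slope. The cause of these shifts was not tested. Of 66 genes, those of the naming rule and Ofd1, which was added after its values were seen, 42 kept their direction and their side of the threshold in every alternative that held them, and 1 turned its sign, Cers1 (0.049 with sets of 15, not called). Cacng1 and Trdn lost their call in 11 alternatives each and Pik3cb in 10. The middle animals gave 19 rising genes in place of 24 with the run as a covariate. Alternatives that left out only the highest-scoring or the lowest-scoring animal, and the run in the middle animals, were added after seeing the data. No paired analysis was possible because the labels give 1 group of animals and no numbers shared between groups. Read depth is unknown, so low values such as those of Lep in the low set carry an error that could not be given.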

Other observations

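These genes were picked after their values were seen and are given as a description. They were taken from the called genes, so genes of the same pathways that did not pass are not counted here. G6pdx, the first enzyme of the pentose phosphate pathway, which supplies NADPH to fatty acid synthesis, was higher by 1.07 ± 0.13 (log2, SE, n = 23 and 23; limma adjusted p = 2.41e-08), Pgd, the next dehydrogenase, by 0.55 ± 0.11 and Tkt, the transketolase, by 1.43 ± 0.25. Tshr, the thyrotropin receptor, lay at 0.75, 1.74 and 2.58 (lowest, median and highest) against -3.41, -0.37 and 0.77, a difference of 2.20 ± 0.22. Ptger3, a prostaglandin E2 receptor, was higher by 2.18 ± 0.20, Ffar2, a receptor for short-chain fatty acids, by 1.77 ± 0.22, and Mrap, which carries the melanocortin 2 receptor to the membrane, by 2.31 ± 0.19. Gnai1 and Adcy5, an inhibitory G protein subunit and an adenylyl cyclase, were higher by 1.19 ± 0.13 and 1.18 ± 0.13. Irs3, an insulin receptor substrate of mouse fat cells, was higher by 1.11 ± 0.16.

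Retnla, Fcna and F13a1, genes known from macrophages, were higher by 1.13 ± 0.23, 1.18 ± 0.27 and 0.67 ± 0.17 (limma adjusted p = 0.00127, 0.00453 and 0.0162), while none of the 14 genes of the macrophage list, Cd163 and Mrc1 among them, was called. No high animal for Retnla and Fcna, and 1 for F13a1, lay above every low animal, while 13, 12 and 12 of 23 low animals lay below every high animal for Retnla, Fcna and F13a1. The complement genes C4b and Cfb were higher by 1.05 ± 0.19 and 0.87 ± 0.17. The class I antigen presentation genes H2-K1, H2-D1 and B2m were higher by 0.51 ± 0.14, 0.44 ± 0.11 and 0.48 ± 0.09, and in 1 or more of the 5 runs of title numbers each of the 3 went the other way, with lowest values of -0.49, -0.14 and -0.09.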
